A study of Mus musculus with 10 samples.

Results

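The S100 genes encode small calcium-binding proteins, and 10 of them (S100a1, S100a3, S100a4, S100a6, S100a8, S100a9, S100a10, S100a11, S100a13 and S100a16) were followed in mouse tumours. They were found by symbol among the 23092 gene symbols of the deposited RNA sequencing table, where each had 1 row with a valid test, so that all 10 could be read. The tumours grew under the skin of immune-compromised mice from C57BL/6 embryonic fibroblasts that carried RAS and a dominant-negative p53 (DNP53). In 3 of the 5 tumours cyclin D1 carried a tag (lines 12 and 14, line 14 used for 2 tumours), and in the other 2 it did not (lines 18 and 25). All animals, controls included, received the siRNA against the HA tag in the Aonys formulation by the rectal route, 5 times per day, from a tumour size of 500 mm3. Animals were killed 30 min after their final dose, and each library was read on 2 lanes. The 2 groups have no line in common, so the tag cannot be told apart from the line, and the mice's age is not in the labels. The authors' deposited table gives 1 level per gene for each of 2 conditions, C1 and C2, and nothing in the table or labels says which is the tagged one. Directions below are therefore those of C2 relative to C1. There is no value per tumour, hence no SD, n or depth, and no source used here says if Cuffdiff, the test program of Cufflinks, treated lanes or tumours as the replicates.

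S100 proteins are built from a pair of EF-hands, helix-loop-helix units whose loop holds a calcium ion, and they work mostly as dimers. Binding of calcium opens a surface through which the dimer grips a target inside the cell, such as an annexin or a myosin heavy chain. Some members are also secreted and act on receptors of other cells. Most genes of the family lie side by side in 1 cluster, in the mouse on chromosome 3. In tumours S100A4 is known for its link to migrating and mesenchymal cells, and the S100A8 and S100A9 pair for its abundance in neutrophils.

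The loop of the second EF-hand is the part the family shares, and it is printed here to show how alike the members are and where they part. A published pattern of 12 positions for a calcium-binding loop was searched in the coding sequence of each member (GENCODE M21, GRCm38), and the 36 bases of the best match follow, from 5′ to 3′ on the coding strand. Capitals mark codons 1, 3, 5 and 12 of the loop, whose residues are positions of the pattern that commonly hold the ion.
S100a4: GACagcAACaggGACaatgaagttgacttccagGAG
S100a6: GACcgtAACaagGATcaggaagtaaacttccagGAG
S100a10: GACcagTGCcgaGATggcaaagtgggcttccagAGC
S100a11: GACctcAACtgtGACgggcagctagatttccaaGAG
S100a8: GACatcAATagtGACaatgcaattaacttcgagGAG
S100a9: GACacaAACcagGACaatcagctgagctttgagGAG
S100a13: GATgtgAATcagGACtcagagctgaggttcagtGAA
S100a16: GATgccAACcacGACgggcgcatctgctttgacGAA
S100a1: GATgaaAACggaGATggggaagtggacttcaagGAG
S100a3: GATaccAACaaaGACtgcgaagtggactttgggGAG
All 12 positions were met in 7 members. S100a3 met 11, and S100a10 and S100a13 met 10 each. S100A10 is known as the member that has lost calcium binding and stays in its active shape. The S100a4 loop (chr3:90605785-90605820, GRCm38, plus strand) shared 29 of 36 bases with that of S100a8 and 28 with that of S100a6. It shared 19 with that of S100a10 and fewer, 16 each, with those of S100a13 and S100a16, though S100a16 met all 12 positions. S100a8 and S100a9, whose proteins pair with each other, shared 23 of 36 bases in this loop.

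Of the 10 members, 1 passed the authors' test: S100a4 was lower in C2, and no member (0) was called higher. A gene is named called where the authors' q, adjusted over all 16681 tested rows of the table, was under 0.05. That q was given to 7.12% of all tested rows, 4.2% higher and 2.92% lower in C2, so 1 call among 10 members is close to the background and says nothing about the family as a whole. At q under 0.01 it was again 1 member, beside 4.21% of all tested rows, 2.64% higher and 1.57% lower. At an unadjusted p under 0.05 there were 2 members, or 20% beside 17.1% of all tested rows. The median log2 ratio of C2 over C1 was -0.19 over the members and 0.05 over all tested rows, with 6 members lower and 4 higher in value.

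**Figure D1:**
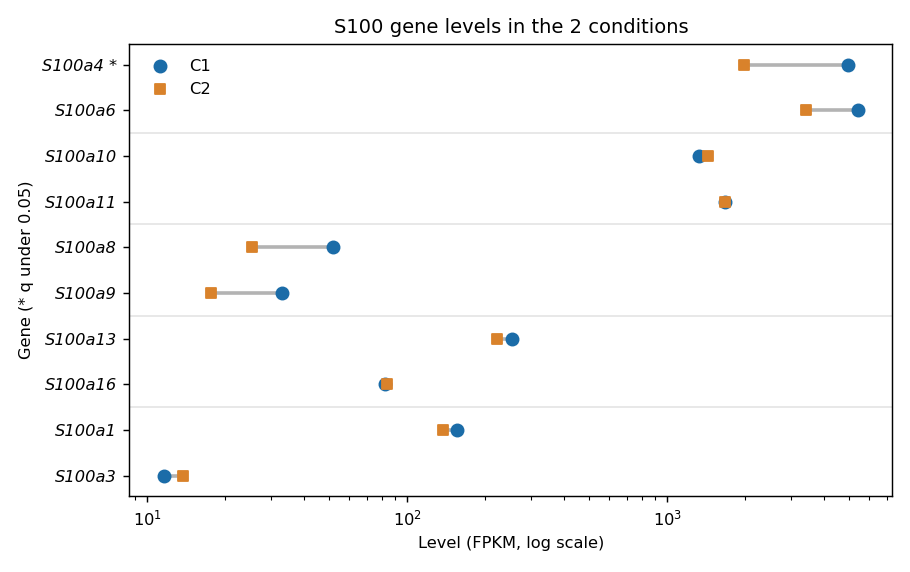
Levels of the 10 S100 genes in C1 (circles) and C2 (squares), in FPKM on a log axis, grouped by role, with an asterisk where q was under 0.05. The level of S100a4 went from 4955 to 1981 FPKM, while the S100a10 and S100a11 points nearly coincide.

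The levels of the members spanned a wide range. FPKM scales the fragments of a gene by transcript length and by the number mapped in the library, so genes can be set beside each other roughly. Some S100 transcripts are short, such as 486 bases for S100a8 and 498 for S100a4. How well the scaling holds at such lengths was not checked. In C1 the most abundant member stood 465-fold above the least abundant, and in C2 249.3-fold. The order in C1 was S100a6, S100a4, S100a11, S100a10, S100a13, S100a1, S100a16, S100a8, S100a9 and S100a3. All members, S100a4 included, kept this order in C2, where S100a4 stood nearer in level to S100a11 than to S100a6. Neighbours in this order could not be compared with a spread between tumours.

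S100A4 and S100A6 are the members tied to fibroblasts and growth. S100A4, also called fibroblast-specific protein, binds non-muscle myosin heavy chain and affects cell motility. S100a4 (XLOC_015449; on MGSCv37, chromosome 3, 90407691 to 90409967) had 4955 FPKM under C1 and 1981 FPKM under C2, by the authors' deposited table. It fell 2.50-fold, or by 1.32 as a log2 ratio, and the authors' Cuffdiff p = 5e-05 and q = 0.0016681, where 5e-05 is the smallest p in the table and shared by 500 rows. Among 13626 tested rows with a gene name it ranked 9 by level in C1 and 18 in C2. S100A6, or calcyclin, is induced by growth factors and binds a ubiquitin-ligase adaptor, the product of Cacybp. S100a6 (XLOC_015451, chromosome 3, 90416815 to 90419158) had 5410 FPKM under C1 and 3415 FPKM under C2, by the authors' table. That is a log2 ratio of -0.66, and the authors' Cuffdiff p = 0.06875 and q = 0.350, so it was not called, which does not show that the conditions were alike. The FPKM ratio of S100a4 to S100a6 was 0.916 in C1 and 0.580 in C2, a difference for which no test could be made. Of the 100-base windows of the S100a4 transcripts in GENCODE M21, 41.9% also occur in a transcript of Gm42674, which overlaps S100a4 on the same strand, as do 5.93% of those of S100a3. Reads from there cannot be assigned to one or the other by sequence, and Gm42674 has no row of its own here.

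**Figure D2:**
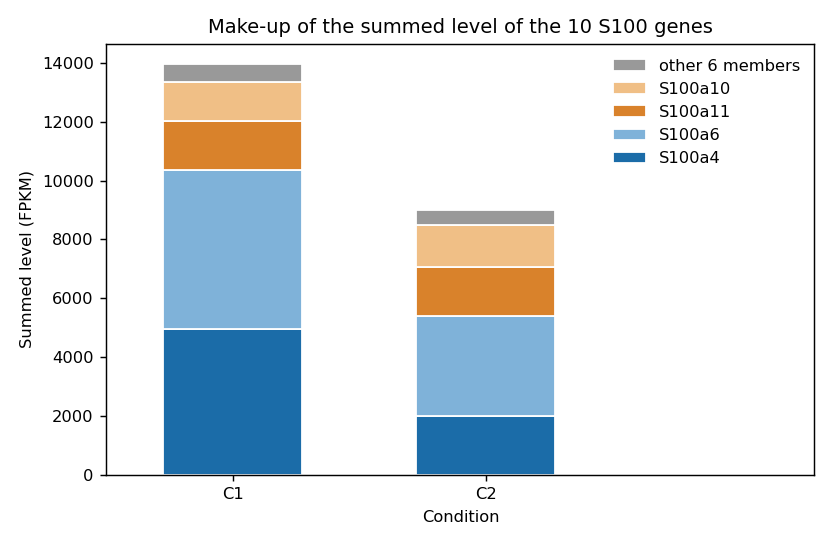
Summed level of the 10 S100 genes in FPKM in each condition, as stacked bars by gene from 0. The sum was 13944 FPKM in C1 and 9001 FPKM in C2, and the S100a4 block is the one that shrinks most.

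The 2 most abundant genes, S100a4 and S100a6, made up 74.3% of the members' summed level in C1 and 60.0% in C2. S100a4 alone was 35.5% and 22.01%, and S100a6 38.8% and 37.9%. S100a10 and S100a11 together were 21.4% in C1 and 34.5% in C2, although their own levels barely differed. Without S100a4 the sum was 8989 FPKM in C1 and 7020 FPKM in C2. These shares are descriptions of the authors' mean levels and carry no test.

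Of 11 measured fibroblast markers 6 were called lower and none (0) higher, 4 at q under 0.01, with a median log2 ratio of -1.04 and a summed level of 8943 FPKM in C1 and 4540 FPKM in C2. No fibroblast marker (0) was listed at 0 in either condition, the labelled cell of origin being the embryonic fibroblast. Thy1, a surface glycoprotein of stromal cells, the proteoglycan gene Lum and the matricellular gene Postn had log2 ratios of -2.97, -1.90 and -1.48. The collagen gene Col1a1, also called, had a log2 ratio of -0.15 from its 2 levels but a fold of -1.07 in the authors' deposited table, and such a gap of over 0.01 was found in 19 tested rows, none (0) of them an S100 member. Vim, an intermediate filament of mesenchymal cells, stood at 2970 and 2027 FPKM in the authors' table and was not called (Cuffdiff q = 0.574). In a bulk tumour, fewer cells of a type and less RNA per cell cannot be told apart. The part of these markers in the S100a4 result was not tested.

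S100A10 and S100A11 are the annexin partners of the family. S100A10, or p11, binds annexin A2 in a complex that tethers plasminogen activation and channels to the membrane. S100a10 (XLOC_015484, chromosome 3, 93359038 to 93368568) had 1324 FPKM under C1 and 1431 FPKM under C2, by the authors' table, a log2 ratio of 0.11 (Cuffdiff q = 0.932). Anxa2, the most abundant of the annexins and other intracellular partners listed, stood at 1333 and 1309 FPKM, so that the FPKM ratio of S100a10 to Anxa2 was 0.993 in C1 and 1.09 in C2. S100A11, or calgizzarin, binds annexin A1 and takes part in membrane repair and keratinocyte growth control. S100a11 (XLOC_015483, chromosome 3, 93324417 to 93330210) stood at 1666 and 1675 FPKM in the authors' table, a log2 ratio of 0.01 (Cuffdiff q = 0.997) that turns to -0.05 when ratios are centred on the median of tested rows. Anxa1, named as its known partner and not by the naming rule, stood at 907 and 559 FPKM (log2 ratio -0.70, the authors' Cuffdiff p = 0.0142, q = 0.130). No annexin or other intracellular partner was called (0 of 10 tested), with a median log2 ratio of 0.00 and 1 at an unadjusted p under 0.05. For S100a11, 34% of the 100-base windows of its transcript also occur in a pair of annotated pseudogenes, Gm12854 and Gm7665. Neither has a row here, reads from there cannot be assigned by sequence, and the effect on the S100a11 level is unknown.

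The plasminogen system, on which S100A10 acts at the cell surface, had 2 genes called lower among 6 tested and none (0) higher, with a median log2 ratio of -0.65. Plau, the urokinase that activates plasminogen, had 648 and 206 FPKM and fell by 1.66 as a log2 ratio (q = 0.0016681 in the authors' table). Serpine2, an inhibitor of such proteases, had 198 and 67.02 FPKM and fell by 1.56. S100a10 and Anxa2 themselves were not among the called genes.

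S100A8 and S100A9 form calprotectin, a secreted pair that binds zinc and manganese and signals through Toll-like receptor 4 and the receptor AGER. S100a8 (XLOC_015453, chromosome 3, 90472992 to 90473956) had 52.0 FPKM under C1 and 25.3 FPKM under C2, by the authors' table, a log2 ratio of -1.04, and the authors' Cuffdiff p = 0.03315 and q = 0.229. S100a9 (XLOC_016028, chromosome 3, 90496554 to 90499621) had 33.05 FPKM under C1 and 17.6 FPKM under C2, a log2 ratio of -0.91, and the authors' Cuffdiff p = 0.05725 and q = 0.316. Neither was called. Their FPKM ratio, S100a8 over S100a9, was 1.57 in C1 and 1.44 in C2, so the values of the 2 subunits moved by similar amounts.

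Neutrophils are the usual source of calprotectin, and their markers were low in both conditions. The 10 markers with a row summed to 11.7 FPKM in C1 and 13.6 FPKM in C2, less than S100a8 alone, and Elane, a protease of neutrophil granules, was listed at 0 in C1. Of 8 tested markers 1 was called higher, the iron-binding Ltf (log2 ratio 3.36), which glandular epithelia also make, and none (0) lower. At an unadjusted p under 0.05 there were 5 of the 8. Besides Ltf these were the granule gene Ngp (log2 ratio 2.76) and, in the direction of S100a8 and S100a9, the secreted Retnlg (-1.57), the chemokine receptor gene Cxcr2 (-1.35) and the collagenase gene Mmp8 (-1.35). The median log2 ratio of the 8 was -0.56, with 5 lower and 3 higher in value. Without Ltf, a choice made after the values were seen, the marker sum was 11.1 FPKM in C1 and 8.21 FPKM in C2, a log2 ratio of -0.44 in place of 0.22. Macrophage markers summed to 845 and 820 FPKM, with 1 of 12 called, the lipopolysaccharide co-receptor Cd14 (higher, log2 ratio 1.13), and a median of -0.09. The part of either cell type in the S100a8 and S100a9 values was not tested.

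Among 9 receptors and surface binders of secreted S100 proteins 2 were called lower and none (0) higher, or 22.2% beside 7.12% of all tested rows. The median log2 ratio was -0.40, with 6 lower and 3 higher in value. Their summed level was 1457 FPKM in C1 and 1669 FPKM in C2. Most of it came from Bsg, at 1041 and 1380 FPKM (Cuffdiff q = 0.645), which was not called. Cd36, a scavenger receptor, had 15.8 and 6.95 FPKM and fell by 1.19 as a log2 ratio (q = 0.0218 in the authors' table). Mcam, an adhesion molecule of vessel and stromal cells, had 31.1 and 16.9 FPKM and fell by 0.88 (q = 0.0401). Tlr4 was at 6.397 and 4.04 FPKM (q = 0.291) and Ager at 2.75 and 3.31 FPKM (q = 0.887), both named as the main calprotectin receptors and neither called.

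S100A13 and S100A16 are found in many tissues. S100A13 helps to release proteins that lack a signal peptide, such as the growth factor FGF1. S100a13 (XLOC_015444, chromosome 3, 90318356 to 90328506) had 254 FPKM under C1 and 221 FPKM under C2, by the authors' table (log2 ratio -0.20, Cuffdiff q = 0.841). Fgf1 was low, at 1.96 and 2.35 FPKM (q = 0.887). S100A16 is broadly expressed and has been tied to fat-cell formation in mice. S100a16 (XLOC_015446, chromosome 3, 90341194 to 90347073) stood at 82.4 and 83.6 FPKM, a log2 ratio of 0.02 (q = 0.988) that turns to -0.04 with centring. Of 5 tested adipocyte markers 1 was called lower, the lipase Lpl (log2 ratio -1.22).

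S100A1 is best known from heart and skeletal muscle, where it binds the ryanodine receptor and the calcium pump of the sarcoplasmic reticulum. S100a1 (XLOC_016027, chromosome 3, 90314955 to 90318252) had 156 FPKM under C1 and 138 FPKM under C2, by the authors' table (log2 ratio -0.18, Cuffdiff q = 0.867). Of its 6 listed targets in muscle 4 were tested and 2 were called lower, Ttn (log2 ratio -3.86) and the ryanodine receptor Ryr1 (-3.34), with a median of -3.06 over the 4. The calcium pump genes Atp2a1 (-2.78, q = 0.388) and Atp2a2 (-0.33, q = 0.623) were not called. Skeletal muscle markers had 8 of 10 called lower, a median of -3.50, and a summed level of 1411 FPKM in C1 and 119 FPKM in C2. Tnnc2, Myl1 and Ckm, which encode a troponin, a myosin light chain and the muscle creatine kinase, had log2 ratios of -3.86, -3.76 and -3.74. The S100a1 level in C2 was thus 88.3% of that in C1, beside a muscle marker sum that differed far more, and the difference between the 2 was not tested.

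S100A3 is a cysteine-rich member of the hair cuticle. S100a3 (XLOC_015448, chromosome 3, 90404136 to 90406624) was the least abundant member, with 11.6 FPKM under C1 and 13.7 FPKM under C2, by the authors' table (log2 ratio 0.24, Cuffdiff q = 0.910). Of 4 tested hair follicle rows 1 was called lower, that of the hair follicle keratin Krt25 (-3.76), with a median of -2.18. The most abundant of the 4, for Krt85, is a joined row that also holds Krt4, Krt6a and Krt82, of which Krt4 and Krt6a are not hair keratins. Padi3, the enzyme that modifies S100A3 in hair, was at 0.0877 and 0.107 FPKM and was not tested by Cuffdiff.

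**Figure D3:**
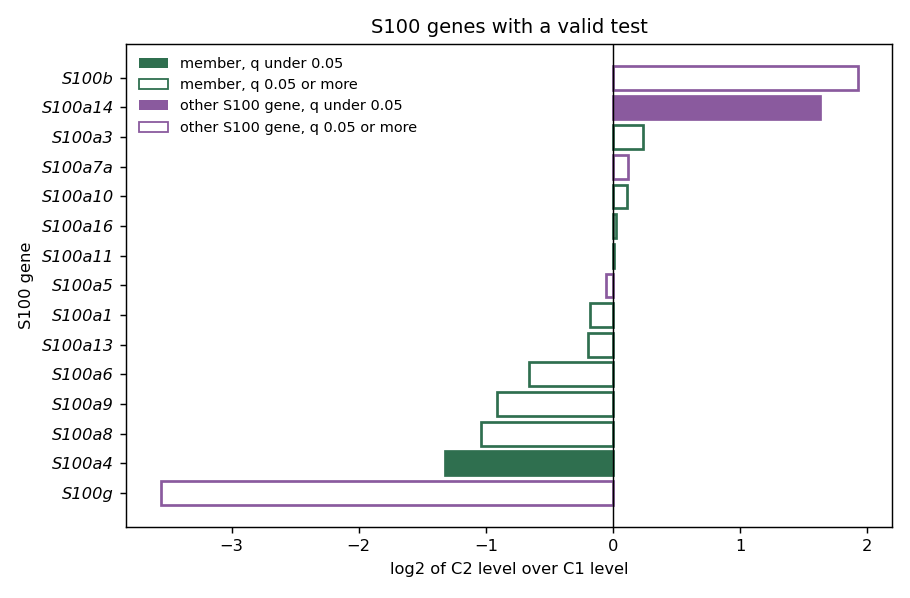
Log2 ratio of C2 over C1 for the 15 S100 genes with a valid test, as bars from 0, filled where q was under 0.05 (green, the 10 members; purple, other S100 genes). S100a4 (-1.32) and S100a14 (1.63) are the 2 filled bars, in opposite directions.

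Another 7 S100 genes had a row, of which 5 were tested, 1 was called higher and none (0) lower. That is 20% of those tested, beside 7.12% of all tested rows, 4.2% higher. A single call among 5 says nothing about these genes as a set, and at q under 0.01 there was none (0). S100a14, a member of epithelia, rose from 3.46 to 10.7 FPKM in the authors' table, a log2 ratio of 1.63, and the authors' Cuffdiff p = 0.0034 and q = 0.0481, just under the threshold. It lies in the same cluster (chromosome 3, 90330770 to 90332760) between S100a13 and S100a16. Simple epithelium markers had 8 of 10 called higher and none (0) lower, with a median log2 ratio of 3.08 and a summed level of 641 FPKM in C1 and 1114 FPKM in C2. Most of the C1 sum came from Krt18, at 516 and 514 FPKM (Cuffdiff q = 0.989), which was not called. The claudin genes Cldn7 and Cldn3 and the splicing factor Esrp1 had log2 ratios of 5.73, 4.15 and 4.36. S100b, known from glia and cartilage, stood at 0.5001 and 1.90 FPKM (log2 ratio 1.92, q = 0.0744) and was not called. Of 4 tested glial markers 1 was called, the transcription factor Sox10 (higher, log2 ratio 6.82), while Gfap was listed at 0 in C1 and Foxd3 in C2. S100g, the calcium carrier calbindin-D9k, stood at 3.17 and 0.270 FPKM (q = 0.789) in a row whose locus spans 138 kb. S100a5 (8.85 and 8.53 FPKM, q = 0.987) and S100a7a (1.87 and 2.03 FPKM, q = 0.974) were not called, and S100a2 and S100z, under 1 FPKM in both conditions, were not tested. The part of the epithelial and glial markers in the S100a14 and S100b values was not tested.

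**Figure D4:**
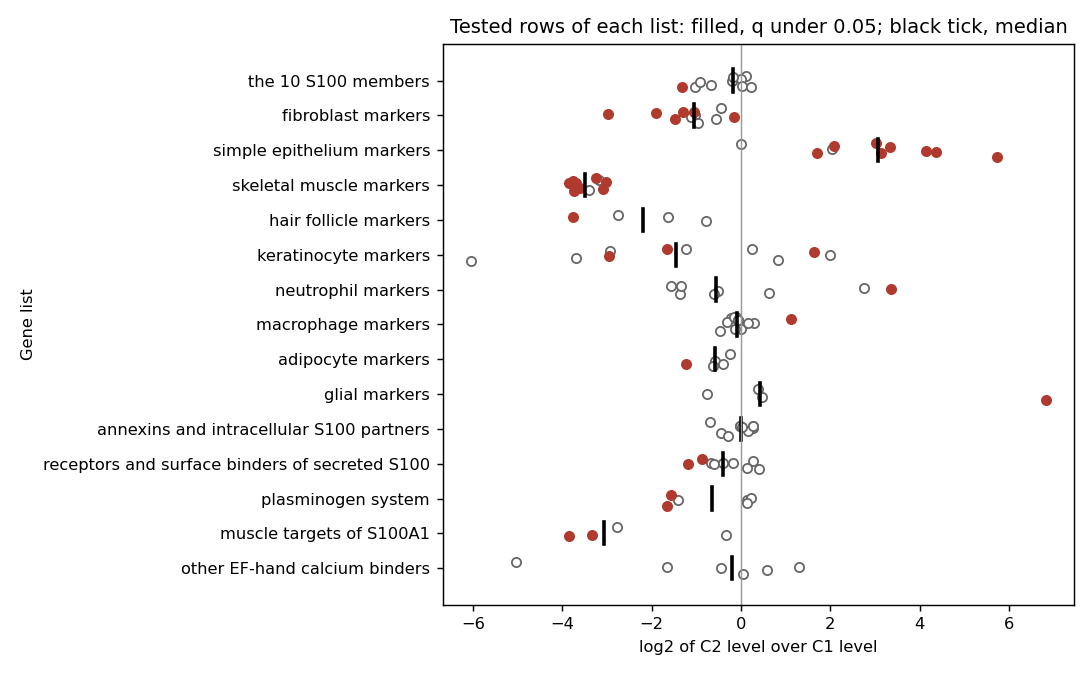
Log2 ratios of C2 over C1 for the tested rows of each gene list, with rows of q under 0.05 filled and the median as a black tick. The 10 S100 members lie between -1.32 and 0.24, while the skeletal muscle list has a median of -3.50 and the simple epithelium list one of 3.08.

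Calmodulins and other EF-hand proteins gave no call (0 of 6 tested), with a median log2 ratio of -0.20 and 1 at an unadjusted p under 0.05. Calm2, the most abundant of them, encodes calmodulin and stood at 674 and 496 FPKM in the authors' table (Cuffdiff q = 0.421). Its level was therefore below those of S100a4, S100a6, S100a10 and S100a11 in both conditions. The tagged gene, Ccnd1, stood at 161 and 243 FPKM (q = 0.218), and its row does not separate tagged from untagged transcripts.

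All 10 members lie on chromosome 3. From S100a1 to S100a9, 12 S100 rows follow each other over 185 kb with no other named row (0) among them, and S100a11 and S100a10 stand 2825 kb further along. Neighbours within the cluster differed in level and in direction. S100a3, 1067 bases from the S100a4 row on one side, and S100a5, 527 bases away on the other, had log2 ratios of 0.24 and -0.05 beside the -1.32 of S100a4. The level of S100a4 was 426-fold that of S100a3 and 560-fold that of S100a5 in C1. S100a1 and S100a13, whose rows are 104 bases apart and whose start sites in RefSeq (GRCm38.p6) point away from each other 105 bases apart, kept an FPKM ratio of 0.615 in C1 and 0.624 in C2.

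**Figure D5:**
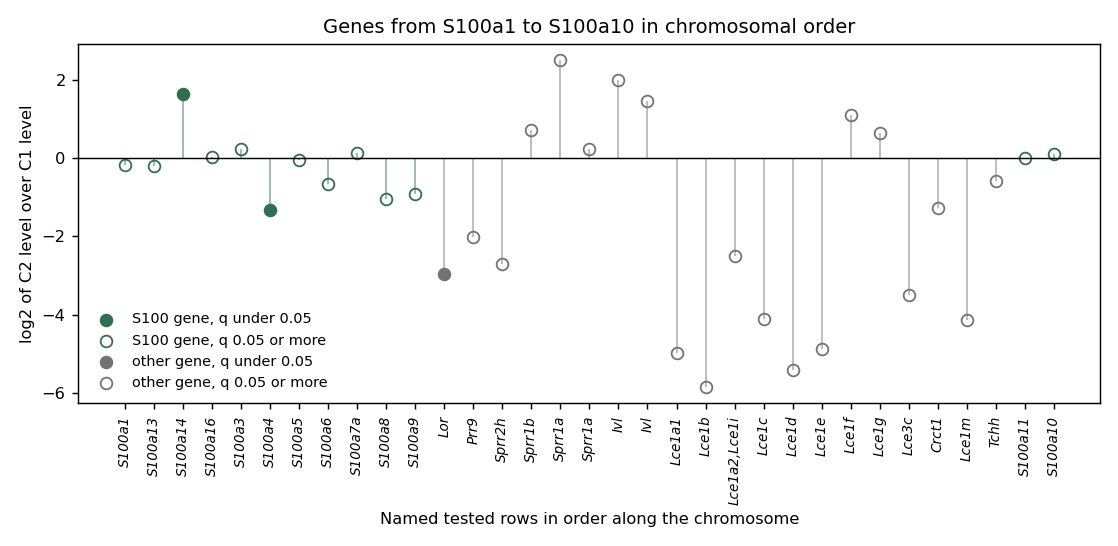
Log2 ratio of C2 over C1 for the named tested rows from S100a1 to S100a10 in chromosomal order, filled where q was under 0.05 (green, S100 genes; grey, other genes). S100a14 (1.63) and S100a4 (-1.32) are filled within the cluster and Lor (-2.95) outside it, and Sprr2d, listed at 0 in C2, has no ratio to plot.

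Between the outer S100 genes lie the genes of the cornified envelope, the protein shell of skin cells. Of 55 named rows there that are no S100 gene, 21 were tested and 2 were called lower, none (0) higher, or 9.52% beside the 7.12% of all tested rows. Lor, the main protein of that shell, went from 5.29 to 0.683 FPKM in the authors' table, and Sprr2d from 2.13 FPKM to a listed 0. The most abundant named row was one of Sprr1a, at 9.32 and 10.99 FPKM (Cuffdiff q = 0.930). The median log2 ratio of the tested rows, without Sprr2d, was -2.26. In value 14 of the 21 were lower, Sprr2d included, and 7 higher. All 21 were low, at most 10.99 FPKM in either condition, so this median rests on small levels. Genes that fuse an S100 domain to a long repeat, such as Hrnr and Tchh, summed to 2.93 and 1.17 FPKM, and of 6 with a row only Tchh was tested and it was not called (q = 0.656). Keratinocyte markers had 3 of 10 called, Lor and Krt10 lower (-2.95 and -1.66) and the desmosomal Dsp higher (1.64), with a median of -1.45.

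The 250 bases before the start site are printed for the 4 members with the lowest log2 ratios, S100a4, S100a6, S100a8 and S100a9. The 4 were picked by these ratios, and only S100a4 was called. S100a5 and S100a7a, which lie between them in the cluster, had log2 ratios of -0.05 and 0.12. The windows come from RefSeq (GRCm38.p6) and lie at chr3:90603520-90603769, plus strand, at chr3:90612644-90612893, plus strand, at chr3:90668821-90669070, plus strand and at chr3:90695722-90695971, minus strand. Each runs 5′ to 3′ on its gene's strand and ends at the base before the start. Capitals mark matches on either strand to a TATA box (TATAAA), an AP-1 motif (TGANTCA) or a C/EBP motif (TTNNGCAA), none of which overlap here.
S100a4: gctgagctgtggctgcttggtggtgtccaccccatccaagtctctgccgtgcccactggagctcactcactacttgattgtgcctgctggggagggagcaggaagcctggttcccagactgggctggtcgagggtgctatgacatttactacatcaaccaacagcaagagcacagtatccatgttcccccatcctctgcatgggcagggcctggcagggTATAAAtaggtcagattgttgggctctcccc
S100a6: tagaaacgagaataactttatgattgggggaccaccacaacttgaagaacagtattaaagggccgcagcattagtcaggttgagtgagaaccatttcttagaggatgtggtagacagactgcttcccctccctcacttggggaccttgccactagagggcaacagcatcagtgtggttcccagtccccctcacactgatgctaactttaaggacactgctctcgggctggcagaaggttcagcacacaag
S100a8: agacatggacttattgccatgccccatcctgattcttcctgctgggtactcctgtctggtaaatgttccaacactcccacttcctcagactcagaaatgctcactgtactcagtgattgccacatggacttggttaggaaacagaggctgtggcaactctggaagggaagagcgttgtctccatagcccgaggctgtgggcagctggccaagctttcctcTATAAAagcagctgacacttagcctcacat
S100a9: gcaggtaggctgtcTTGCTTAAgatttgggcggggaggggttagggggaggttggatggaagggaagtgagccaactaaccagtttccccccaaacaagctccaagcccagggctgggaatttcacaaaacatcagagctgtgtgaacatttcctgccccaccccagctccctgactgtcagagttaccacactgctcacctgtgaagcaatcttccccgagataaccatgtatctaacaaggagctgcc
S100a4 and S100a8 each hold a TATA box, whose first base lies 31 and 30 bases before the start, and S100a6 and S100a9 hold none (0) in these windows. A TATA box is found in 12.4% of all 32851 RefSeq windows of this length. The C/EBP motif occurs once, 236 bases before the start of S100a9, and is found in 9.56% of all windows. None of the 4 windows holds the AP-1 motif (0), which 6.75% of all windows do. A GC box (GGGCGG), not in capitals, occurs once, 223 bases before the start of S100a9, and in 32.7% of all windows. None (0) of the 4 motifs is in all 4 windows, and a match is a run of letters, not a shown binding site. Of the other members with exactly 1 window, S100a1 and S100a13 held none (0) of the 4 motifs. S100a11 held 2 AP-1 motifs and 3 GC boxes.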

How the data were processed

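RNA of 5 tumours (10 samples, since each library was read on 2 lanes) was made into stranded mRNA libraries and sequenced as single reads of 100 bases, per the labels' protocols. Samples were grouped by their titles. The series' design text names Bowtie, TopHat and Cufflinks and the build MGSCv37. Versions in the submitters' processing notes are Cufflinks 2.1.1, CASAVA 1.8.2 and TopHat2 2.0.8b. Per the file headers, columns follow Cuffdiff output, where each condition has 1 level, whose unit is not named. Such levels are FPKM, and the deposited values were read as FPKM. Each p-value and q-value comes from the deposited columns. The deposited test statistic, a score, is used in 1 closing remark.

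Of 27968 rows, 16681 had a valid test, 11286 were not tested and 1 was left out by Cuffdiff for too many reads. In the log2 fold that the authors deposited 516 cells hold a spreadsheet error, so the log2 ratio was computed from the deposited values with no pseudocount. For the 10 members the ratio and the deposited fold differ by at most 6.32e-06. Adjusting the deposited p anew (Benjamini-Hochberg, all tested rows) gave the deposited q to within 5.17e-07. Nothing could be tested again without values per tumour.

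The members and the 21 gene lists, 5 of which hold the members by role, were chosen with earlier results of these data known. Named were all S100 genes with a row, in every other list the 3 called genes with the largest absolute log2 ratio or else the most abundant gene, in the interval every called gene and the most abundant row, and Ccnd1. Genes named outside this rule, the abundant rows, the shares and ratios of levels, the loops, read windows and motifs were chosen after values were seen. The genes are known partners, targets or receptors of members or listed markers. They are Anxa1, Fgf1, Tlr4, Ager, Bsg, Padi3, Atp2a1 and Atp2a2, with Vim and Col1a1 as fibroblast markers. The other markers are Ngp, Retnlg, Cxcr2 and Mmp8 for neutrophils, Krt18 for simple epithelium and Krt85 for hair. Genes named as listed at 0 also belong here. A symbol with several rows was represented by the row with the highest mean. Joined rows stand for Krt85, Krt14 (with Krt42), Krt19 (with Krt13 and Krt17), Lyz2 (with Lyz1) and Myh1 with Myh4, whose genes cannot be told apart. No list test was run. RefSeq windows were found for 9 of the 10 members, all but S100a10, and 7 members had exactly 1. Row coordinates are on MGSCv37, as deposited, and sequence coordinates on GRCm38; none was converted. Alternatives were a q of 0.01, a Bonferroni adjustment, a minimum of 1 FPKM, a 2-fold minimum, single-name rows, pseudocounts of 0.1 and 1, centring and the deposited fold. Adjustment, motif and window code was tested on simulated data. Versions were matplotlib 3.10.9, pandas 2.3.3, numpy 2.4.6 and Python 3.11.15.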

Additional observations from a re-analysis of the deposited data

How the results depend on the processing

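No paired analysis was possible because no level of a single tumour was at hand, which is also why no replicate was left out in turn. Depth is unknown. S100a4 was the 1 member called at q under 0.05, and the count stayed at 1 at q under 0.01, with a 2-fold minimum, with single-name rows and with adjustment over the 16079 rows at 1 FPKM or more (q = 0.00163). With a Bonferroni adjustment 0 members were called, by construction, since the smallest p in the table gives 0.834 and no row (0) can pass. At q under 0.01 the called genes numbered 0 among the other S100 genes, 0 among the receptors and surface binders and 0 among the hair follicle markers, a stricter threshold by construction, and 4 among the fibroblast markers. Pseudocounts of 0.1 and 1 and the deposited fold kept the sign of the log2 ratio of all 10 members. Centring on the median log2 ratio of tested rows (0.06) turned the sign for S100a11 (-0.0489) and S100a16 (-0.0352), both near 0 and not called. Leaving Ltf out of the neutrophil marker sum, chosen after seeing the data, turned its log2 ratio from 0.22 to -0.44.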

Other observations

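The most abundant transcripts of the tumours, a set chosen after the values were seen, included S100 genes. Of 60 named rows with at least 1000 FPKM in a condition, 4 were S100 members (S100a4, S100a6, S100a10 and S100a11), 6 rows were called lower and 2 higher, and S100a4 had the third lowest log2 ratio among those called lower. In value 29 of the 60 were lower and 31 higher in C2, with a median log2 ratio of 0.00. Called lower were 10% of them. The 2.92% of all tested rows is not a like background, since those rows include unnamed ones and were not picked by level. A row enters the 60 through either condition, as Thy1 did through C1 alone (1154 FPKM in C1 and 147 FPKM in C2). No excess of calls is therefore read from these shares, and none was tested.

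The Cuffdiff test statistic and its p did not rank the S100 genes alike. By the authors' deposited values, S100a4 had a test statistic of -1.74 with p = 5e-05, while S100a8 had one of -2.24 with p = 0.03315. Over the table, 820 rows that were not called had an absolute test statistic above that of S100a4, and 9 of the 500 rows at the smallest p had one below it.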
